A study of Mus musculus with 18 samples.

Results

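The Myc, Max and Mxd network was followed through 18 RNA sequencing libraries of mouse testis, liver and brain. Its members here are 10 genes taken by symbol, Myc, Mycn, Mycl, Max, Mxd1, Mxd3, Mxd4, Mxi1, Mnt and Mlx, and all 10 were found among the 34932 genes of the deposited table. The network was selected on the liver counts of Myc, which were lower under stress than in controls, so the liver values of stress against control, and every difference that contains them, stand as a description with no test. The stress groups came from mice subjected to chronic restraint stress, a procedure that keeps an animal confined, and the control groups from mice without it. Each of the 6 groups (stress or control in each of 3 tissues) had 3 libraries, which the series describes as biological replicates. No source used here gives the strain, the age or the length of the restraint. Sample codes recur from tissue to tissue, which ties the 3 tissues to the same animals.

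MYC, MYCN and MYCL are basic helix-loop-helix leucine zipper proteins that bind DNA as pairs with MAX, at sites called E-boxes, and switch on genes of growth, ribosome production and metabolism. MXD1, MXD3, MXD4, MXI1 and MNT take the same partner, MAX, and bring SIN3 and histone deacetylase complexes to such sites, so that they oppose MYC. MLX is a MAX-like protein that pairs with the glucose-sensing Mondo proteins and also with some MXD proteins and MNT. In liver, Myc is known as an early response gene, low in resting hepatocytes and induced within the first hours of regeneration.

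The E-box hexamer that MYC and MAX bind best, CACGTG, reads the same on both strands and was searched for in promoter windows of 300 bases around the annotated gene start. The RefSeq promoter table (build GRCm38.p6) held 9 of the 10 members; Myc itself is not among them. The hexamer was found in 4 of those 9 members, Max, Mlx, Mnt and Mxd4, against 8.09% of the 27025 genes in the table. Their windows are shown because the partner protein and 3 genes that share its family carry the letters which the network's own proteins recognise. Of the lists described below, the hexamer was found in 7 of 25 ribosome biogenesis genes, 8 of 26 growth and metabolism genes, 3 of 10 genes of the Mondo arm, 4 of 21 immediate early genes, 2 of 15 turnover genes, 1 of 16 cofactor genes, 0 of 8 genes repressed by MYC and 0 of 8 cell cycle genes. A match describes these letters only, and no binding was measured. The hexamer is in capitals, and its first base lies at position -3 from the gene start in Max, -40 in Mlx, -123 in Mnt and -219 in Mxd4. The Max window is chr12:76962199-76962498 on the minus strand, the Mlx window chr11:101087040-101087339 on the plus strand, the Mnt window chr11:74830674-74830973 on the plus strand and the Mxd4 window chr5:34187661-34187960 on the minus strand, all on GRCm38.p6.
Max: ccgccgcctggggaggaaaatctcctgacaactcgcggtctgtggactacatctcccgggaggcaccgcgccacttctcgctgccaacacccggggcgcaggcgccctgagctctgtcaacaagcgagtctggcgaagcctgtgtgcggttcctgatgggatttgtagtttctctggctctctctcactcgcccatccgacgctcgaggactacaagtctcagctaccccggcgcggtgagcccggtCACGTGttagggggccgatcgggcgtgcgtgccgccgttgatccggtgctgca
Mlx: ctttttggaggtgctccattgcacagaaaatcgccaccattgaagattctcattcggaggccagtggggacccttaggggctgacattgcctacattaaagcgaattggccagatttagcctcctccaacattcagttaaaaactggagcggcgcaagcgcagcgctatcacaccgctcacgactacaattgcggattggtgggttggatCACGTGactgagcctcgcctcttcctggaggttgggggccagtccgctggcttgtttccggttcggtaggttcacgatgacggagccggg
Mnt: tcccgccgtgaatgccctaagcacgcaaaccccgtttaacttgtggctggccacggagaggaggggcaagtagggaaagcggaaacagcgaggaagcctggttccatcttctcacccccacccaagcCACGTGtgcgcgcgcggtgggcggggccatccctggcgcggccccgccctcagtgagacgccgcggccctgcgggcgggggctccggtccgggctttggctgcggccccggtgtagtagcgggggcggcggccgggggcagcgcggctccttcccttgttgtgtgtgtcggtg
Mxd4: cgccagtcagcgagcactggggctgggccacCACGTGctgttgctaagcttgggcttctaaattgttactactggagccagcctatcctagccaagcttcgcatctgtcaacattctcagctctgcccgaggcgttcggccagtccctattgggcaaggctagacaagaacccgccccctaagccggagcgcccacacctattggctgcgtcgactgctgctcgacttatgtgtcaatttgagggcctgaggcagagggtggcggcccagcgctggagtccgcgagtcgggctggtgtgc

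Library totals ran from 27.8 to 36.5 megacounts. Hepatocyte markers summed to 94274 CPM (counts scaled to library size) or more in every liver library and neuron markers to at least 5045 CPM in every brain library. Spermatid markers summed to at least 9060.03 CPM in every testis library. The brain libraries are labelled brain, although the extraction protocol speaks of hippocampus. Stress brain replicate 3 was kept with the stress group, as its title and treatment have it, despite a control prefix in its description code. Levels below are FPKM, counts per kilobase of the authors' fixed gene length and megacount of library, corrected with edgeR's TMM factors over all 18 libraries.

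Myc, for whose lower level in stress liver the network was selected, is described first. Its level was 1.09, 5.88 and 1.34 FPKM in stress livers, against 17.2, 17.2 and 23.3 FPKM in control livers. The groups did not overlap, and stress replicate 2 lay well above the other stress livers and well below every control. The raw counts behind these levels were 64, 367 and 79 in stress livers and 1054, 1049 and 1414 in control livers, so counting error is small beside the spread between animals. The mean was 2.77 ± 2.70 FPKM in stress livers and 19.2 ± 3.50 FPKM in control livers (SD, n = 3 each), a log2 fold change of -2.74 ± 0.54 (SE) in the edgeR fit over all genes. Myc was 1 of 8 members tested that passed the adjusted threshold of 0.05, where 1.63% of the 14253 genes tested passed. It was also the only member whose liver groups did not overlap, as held for 23.5% of genes. Because Myc was picked for this contrast, nothing is read from those counts. The call was lost when control replicate 1, 2 or 3 or stress replicate 1 or 3 was left out. With single libraries left out, the log2 fold change lay between -3.93, without stress replicate 2, and -2.36, without stress replicate 1.

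**Figure D1:**
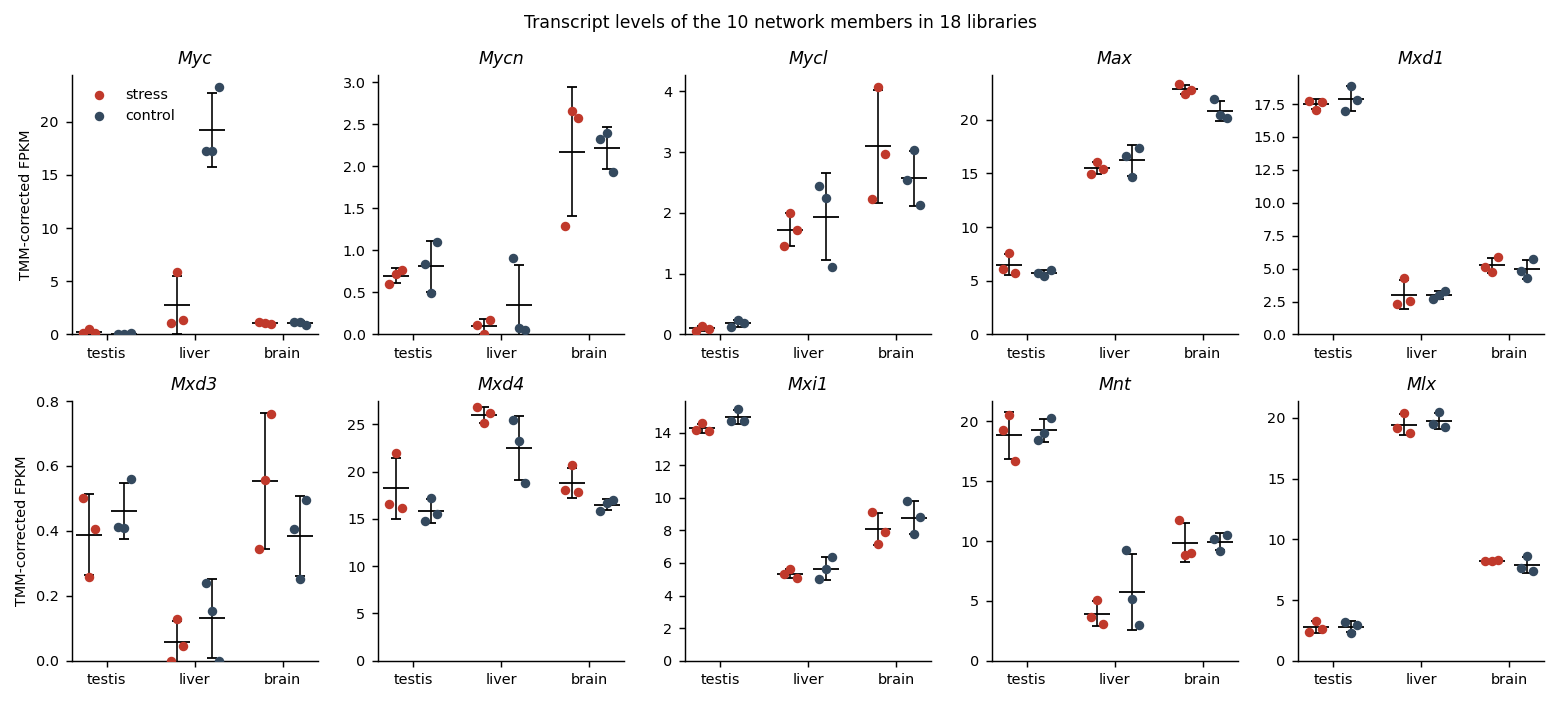
TMM-corrected FPKM (linear axes from 0, scaled separately for each gene) of the 10 members in each library, by tissue, with stress in red to the left of control in blue; black bars give the group mean and SD of 3 libraries. Myc has 17.2 to 23.3 FPKM in control livers and at most 5.88 FPKM in every other library, while Mxd1, Mxi1 and Mnt are highest in testis and Max in brain.

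Of the other Myc genes, Mycl showed no such difference in liver, and Mycn had too few reads to tell. Mycl, a relative of Myc, had 1.45, 2.0 and 1.72 FPKM in stress livers and 2.45, 2.25 and 1.12 FPKM in control livers. The groups overlapped, with a log2 fold change of -0.11 ± 0.29 (SE). Mycn, known for its role in neural progenitors, had 8, 0 and 12 counts in stress livers and 66, 6 and 4 in control livers. Control replicate 1 alone held most of the liver reads of Mycn, and the gene did not pass the low-count filter in liver. DESeq2, run without that filter, put its log2 fold change at -1.79. These counts show neither a difference nor its absence.

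Max, the shared partner, had 15.0, 16.1 and 15.4 FPKM in stress livers and 16.6, 14.6 and 17.4 FPKM in control livers, with a log2 fold change of -0.01 ± 0.13 (SE). Among the antagonists, Mxd4 had the highest level in liver, 26.8, 25.1 and 26.2 FPKM in stress livers against 25.5, 23.3 and 18.8 FPKM in control livers. Only control replicate 1 lay within the stress range, with a log2 fold change of 0.27 ± 0.12 (SE). Mnt, which pairs with MAX in most cell types, had 3.66, 5.07 and 3.03 FPKM in stress livers and 9.21, 5.12 and 2.95 FPKM in control livers. Its log2 fold change was -0.49 ± 0.35 (SE), and the high value was in control replicate 1, the library that also held most Mycn reads. Mxd1, an antagonist that rises when cells differentiate, differed by 0.06 ± 0.24 on the log2 scale (SE), Mxi1 by -0.04 ± 0.14 and Mlx by 0.03 ± 0.11. Mxd3, the antagonist described in dividing cells, had 0 to 6 counts in stress livers and 0 to 11 in control livers and was not tested.

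**Figure D2:**
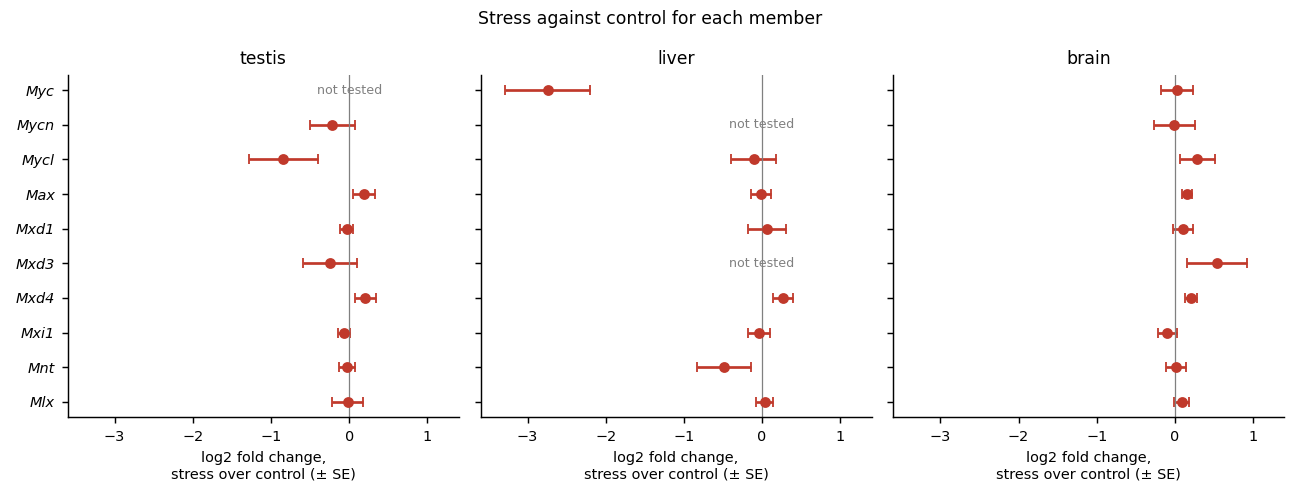
Log2 fold change of stress over control with its SE from the edgeR fit (3 libraries a group) for each member in testis, liver and brain; members that did not pass the low-count filter are marked. Myc in liver lies at -2.74, and the remaining points lie between -0.84 and 0.54.

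The balance of transcripts within the network differed in liver as Myc did. The summed level of the antagonists Mxd1, Mxd3, Mxd4, Mxi1 and Mnt was 36.9 to 40.2 FPKM in stress livers and 31.5 to 42.7 FPKM in control livers, so these ranges overlapped. The summed level of Myc, Mycn and Mycl was 2.66 to 7.88 FPKM in stress livers and 19.5 to 24.4 FPKM in control livers. The ratio of the antagonist sum to the Myc gene sum was 14.3, 5.11 and 11.4 in stress livers, against 2.08, 1.90 and 1.29 in control livers. In brain the ratio was 5.38 to 9.44 under stress and 5.81 to 8.65 in controls, and in testis it was 54.6 to 90.0 under stress and 48.8 to 88.2 in controls. The ranges overlapped in brain and testis. Myc made up 41.1% to 74.6% of the Myc gene sum in stress livers and 83.7% to 95.2% in control livers. Because Myc was selected for its liver difference, the liver ratio restates that difference, and nothing further is read from it. These are ratios of transcripts, and protein was not measured.

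**Figure D3:**
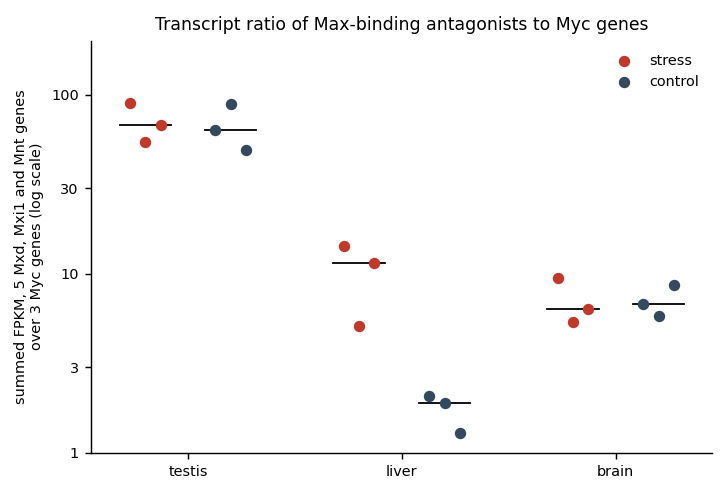
Ratio of the summed FPKM of Mxd1, Mxd3, Mxd4, Mxi1 and Mnt to that of Myc, Mycn and Mycl in each library (log axis), with stress to the left of control and a line at the median of 3 libraries. Stress livers lie at 5.11 to 14.3 and control livers at 1.29 to 2.08, while the brain and testis groups overlap.

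Markers of some other cell types also differed between the liver groups, while those of others overlapped. The 10 macrophage markers summed to 248 to 297 CPM in stress livers and 122 to 149 CPM in control livers. Of these, 7 of the 10 were called, all of them higher, beside 1.63% of all genes tested. The 8 endothelial markers summed to 57.4 to 98.2 CPM in stress livers and 94.0 to 145 CPM in control livers, so the ranges overlapped, and 0 were called. Of these 8, 7 had a negative log2 fold change, 3 of them at an unadjusted p under 0.05 in edgeR. Over all 14253 genes tested, 2445 had such a p in either direction. The 6 neutrophil markers summed to 0.80 to 3.90 CPM in stress livers and 5.42 to 11.01 CPM in control livers, with Ly6g at 0 in both groups and Ngp at 0 in stress livers. Only 2 neutrophil markers were tested, both lower at an unadjusted p under 0.05 in edgeR, and 0 were called. Hepatocyte markers, of which 7 of 8 were in the table, summed to 94274 to 128943 CPM in stress livers and 121479 to 136821 CPM in control livers. These ranges overlapped, 5 of the 7 had a negative log2 fold change, and 1 was called, lower. The part of these markers in the Myc difference was not tested, and in bulk tissue fewer cells of a type and less RNA per cell cannot be told apart.

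The lists of known Myc targets had medians near that of all genes in liver. Over all 14253 genes tested in liver, 1.63% passed edgeR's test and 2445 had an unadjusted p under 0.05. DESeq2 called 449 higher and 369 lower of 14228 genes. The list counts in liver stand beside these shares. Of 30 ribosome biogenesis genes that MYC is known to switch on, 0 passed edgeR's test in stress livers, while 3 positive and 1 negative had an unadjusted p under 0.05 and DESeq2 called 0. Their median log2 fold change was 0.03, beside -0.01 over all genes tested, and 20 of the 30 were positive. Of 30 targets in growth and metabolism, 1 was called, Cad, which encodes the enzyme of the first steps of pyrimidine synthesis. Cad had 4.67, 4.16 and 4.54 FPKM in stress livers and 2.61, 2.34 and 2.73 FPKM in control livers, and rose by 0.85 ± 0.13 (log2, SE; adjusted p = 0.0223 in edgeR). No stress liver overlapped a control liver for Cad, and the list had 0 calls without control replicate 2 or stress replicate 1 or 3 and 2 without control replicate 1. The median of this list was 0.09.

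Among 13 genes that MYC is known to repress, 0 passed in liver, 11 had a negative log2 fold change and the median was -0.51. Gadd45a, a growth arrest gene of the DNA damage response, had 5.22, 9.88 and 4.47 FPKM in stress livers and 31.4, 12.8 and 57.5 FPKM in control livers, with a log2 fold change of -2.34 ± 0.50 (SE; adjusted p = 0.0530 in edgeR). Its groups did not overlap. At an unadjusted p under 0.05 this list had 4 genes lower, and DESeq2 called 1. It had 1 call without control replicate 2 or stress replicate 2.

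The cofactor list had 2 of 19 genes called, both higher in stress liver. Kat2a, a histone acetyltransferase that MYC recruits, had 12.3, 13.4 and 11.3 FPKM in stress livers and 9.20, 8.28 and 7.51 FPKM in control livers and rose by 0.62 ± 0.13 (log2, SE; edgeR adjusted p = 0.0476). The groups did not overlap for Kat2a. Leaving out control replicate 1 left 1 of the list's calls, and leaving out any other single liver library left 0. Of 18 genes of MYC protein turnover, 0 passed, while 2 positive and 1 negative had an unadjusted p under 0.05, with 1 call by DESeq2 and a median of -0.07. The unadjusted and DESeq2 counts of the turnover list were close to the shares over all genes. The smallest p of the turnover list belonged to Ppp2r5a, a subunit of the phosphatase PP2A, at -0.48 ± 0.13 (log2, SE; edgeR adjusted p = 0.0929).

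The Mondo arm, in which MLX pairs with the glucose-sensing proteins, had 0 of 13 genes called in liver, 9 at an unadjusted p under 0.05, all lower, and 6 called by DESeq2. Its median log2 fold change was -0.49. G6pc, the last enzyme of glucose output and a known target of this arm, had 182, 198 and 230 FPKM in stress livers and 557, 312 and 384 FPKM in control livers, with a log2 fold change of -0.98 ± 0.21 (SE; adjusted p = 0.0519 in edgeR). Its groups did not overlap. The list gained 1 call without control replicate 2 and 2 calls without stress replicate 2. Of 6 tested cell cycle genes, 0 passed, 3 were positive and 3 negative, with 1 at an unadjusted p under 0.05 and 1 call by DESeq2.

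Immediate early genes, the transcription factors and feedback regulators that, like Myc, are induced soon after a stimulus, had the lowest median of the 8 lists in liver. All 22 tested had a negative log2 fold change, with a median of -1.77, and 2 passed, Fosb and Nr4a3. At an unadjusted p under 0.05 in edgeR the list had 15 genes, all lower, beside 2445 of all 14253 genes. Every stress liver was below every control liver for 15 of the 22, while groups did not overlap, in either direction, for 23.5% of all genes. Fosb, a subunit of the AP-1 factor, had 0.50, 1.78 and 0.40 FPKM in stress livers and 10.6, 9.39 and 11.6 FPKM in control livers and fell by 3.50 on the log2 scale (edgeR adjusted p = 0.0116). Nr4a3, an orphan nuclear receptor, fell by 4.78 on the log2 scale (edgeR adjusted p = 0.0498). No stress liver overlapped a control liver for Fosb. The list had 17 calls without stress replicate 2, and 1 call without control replicate 2 or 3 or stress replicate 1 or 3. The median of the list, as log2 from the control mean, was -3.43, -0.72 and -3.27 in stress livers and -0.22, 0.12 and 0.17 in control livers. Stress replicate 2, the stress liver with the highest Myc, was also the one nearest to the controls on this list.

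**Figure D4:**
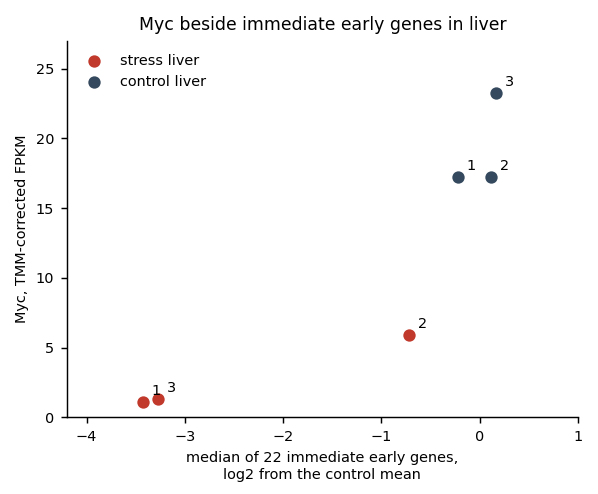
Myc level (TMM-corrected FPKM) against the median of 22 immediate early genes (log2 from the control mean) in the 6 liver libraries, numbered by replicate, stress in red and control in blue. Stress replicates 1 and 3 lie at medians of -3.43 and -3.27 with Myc at 1.09 and 1.34 FPKM, and stress replicate 2 lies at -0.72 with Myc at 5.88 FPKM.

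**Figure D5:**
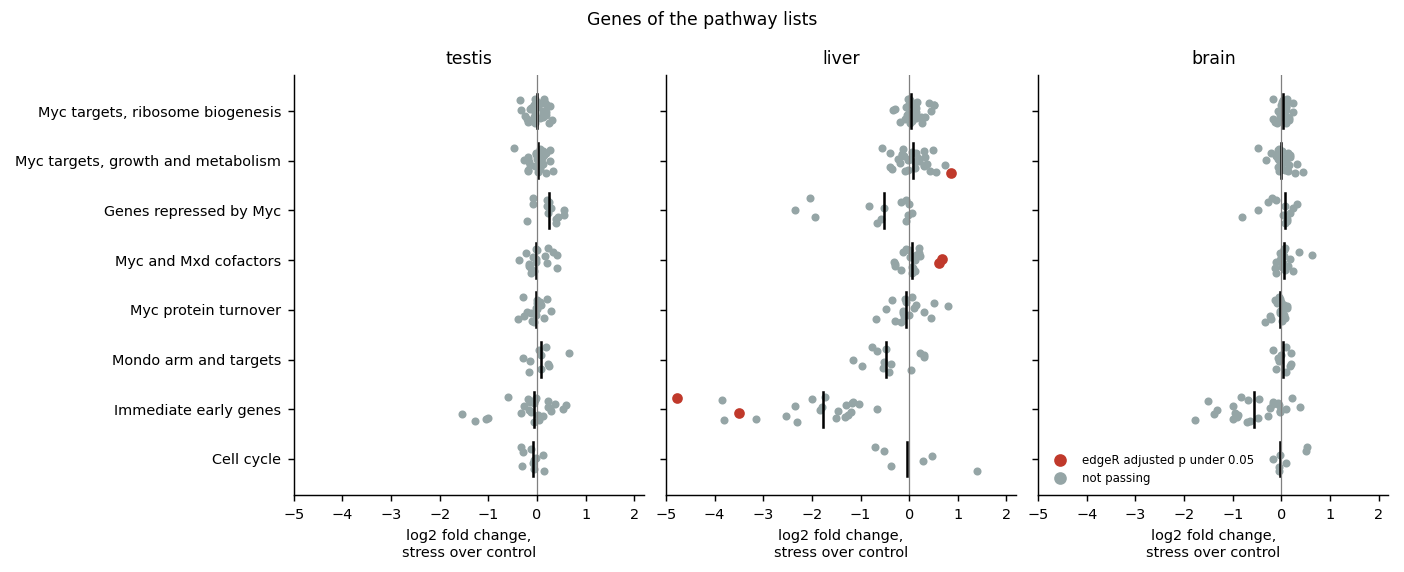
Log2 fold change of stress over control for each tested gene of 8 pathway lists in testis, liver and brain, with a bar at the list's median; red points passed edgeR's adjusted threshold of 0.05. Calls appear only in the liver panel, and the immediate early genes have medians of -0.05 in testis, -1.77 in liver and -0.56 in brain.

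In brain none of the 10 members passed edgeR's test, with 1 at an unadjusted p under 0.05 and 0 called by DESeq2, where 0.00566% of the 17668 genes tested passed. Myc had 1.18, 1.08 and 0.95 FPKM in stress brains and 1.21, 1.13 and 0.86 FPKM in control brains, a log2 fold change of 0.03 ± 0.20 (SE). Mycn had 1.29, 2.66 and 2.57 FPKM in stress brains and 2.32, 2.40 and 1.93 FPKM in control brains, a log2 fold change of -0.01 ± 0.26 (SE). Mycl had 2.24, 4.08 and 2.97 FPKM in stress brains and 2.54, 3.04 and 2.13 FPKM in control brains. All of the Myc genes overlapped between the groups, and the highest Mycl level was in stress replicate 2, where the oligodendrocyte markers had their lowest sum, 1621 CPM against 2449 to 4048 CPM in the other brains.

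Max and Mxd4 had every stress brain above every control brain, which held for 2 of 10 members and, in either direction, for 13.8% of all genes. Max had 23.3, 22.4 and 22.7 FPKM in stress brains and 21.9, 20.4 and 20.1 FPKM in control brains, a log2 fold change of 0.15 ± 0.07 (SE; adjusted p = 0.679 in edgeR). Mxd4 had 18.1, 20.7 and 17.8 FPKM in stress brains and 15.8, 16.7 and 17.0 FPKM in control brains, a log2 fold change of 0.21 ± 0.08 (SE; adjusted p = 0.620 in edgeR). Neither passed the threshold. Mxd3 had 0.54 ± 0.39 on the log2 scale (SE), the largest value among the members, on 32 to 69 counts in stress brains and 23 to 50 in control brains. The log2 fold changes of Mxd1, Mxi1, Mnt and Mlx were 0.11 ± 0.13, -0.10 ± 0.12, 0.01 ± 0.13 and 0.09 ± 0.09 (SE). With the replicate number as a block, 0 members passed and 0.125% of all genes did.

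None of the 8 pathway lists held a gene called by edgeR in brain without the block. Of 26 immediate early genes, 23 had a negative log2 fold change, with a median of -0.56, and 10 had an unadjusted p under 0.05. With the block 3 passed, Btg2 (edgeR adjusted p = 0.0120), Npas4 (edgeR adjusted p = 0.0120) and Dusp1 (edgeR adjusted p = 0.0238), and DESeq2 without the block called 5. DESeq2 also called 1 gene of the growth and metabolism list. Over all genes tested in brain, 1332 of 17668 had an unadjusted p under 0.05 in edgeR, and DESeq2 called 84 higher and 36 lower of 16005. Btg2, an antiproliferative gene, had 10.9, 11.01 and 7.35 FPKM in stress brains and 40.3, 45.3 and 16.1 FPKM in control brains, with no overlap. The ribosome biogenesis list had a median of 0.04 and the growth and metabolism list a median of -0.0048, beside -0.0033 over all genes. Choroid plexus markers summed to 10.1, 388 and 257 CPM in stress brains and 4.61 to 10.9 CPM in control brains. The hepatocyte list, which shares Ttr with them, summed to 3.26, 364 and 236 CPM in the same stress brains and 0.37 to 5.02 CPM in control brains. The 5 red cell markers all had negative log2 fold changes, with a median of -0.91, and summed to 45.4 to 82.3 CPM in stress brains and 74.1 to 196 CPM in control brains. Neutrophil markers summed to 0.11 to 0.17 CPM in stress brains, with Ly6g at 0, and 0.66 to 0.93 CPM in control brains, with Camp at 0. Lymphocyte markers summed to 1.66 to 5.68 CPM in stress brains, with Ms4a1 and Nkg7 at 0, and 7.03 to 8.91 CPM in control brains. Endothelial markers summed to 108 to 124 CPM in stress brains and 125 to 126 CPM in control brains, and neuron markers to 5045 to 5165 CPM in stress brains and 5198 to 5780.07 CPM in control brains. The part of these markers in the brain values was not tested.

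In testis Myc was near its lowest, with 9, 46 and 10 counts in stress testes and 6, 6 and 12 in control testes. These counts gave 0.10, 0.49 and 0.10 FPKM in stress testes and 0.07, 0.07 and 0.13 FPKM in control testes. Stress replicate 2 stood apart, the groups overlapped, and the gene did not pass the low-count filter. The same library had the most macrophage marker signal, 65.6 CPM against 26.6 to 33.0 CPM in the other testes. It also had 412 CPM of Leydig cell markers against 278 to 333 CPM in the other testes, and 519.8 CPM of spermatocyte markers against 837 to 961 CPM. Their part in its Myc level was not tested.

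The 9 members tested in testis had 0 calls, 0 at an unadjusted p under 0.05 and 0 calls by DESeq2, where 0.0201% of 19915 genes passed. Mycl had 0.06, 0.15 and 0.09 FPKM in stress testes and 0.12, 0.24 and 0.19 FPKM in control testes, on 8 to 29 counts. Its groups overlapped, with a log2 fold change of -0.84 ± 0.44 (SE; adjusted p = 0.455 in edgeR). Mxi1 was the only member whose testis groups did not overlap, as held for 20.9% of all genes, with 14.1, 14.6 and 14.1 FPKM in stress testes and 14.7, 15.4 and 14.7 FPKM in control testes. Its log2 fold change was -0.07 ± 0.08 (SE), and -0.01 with library totals alone. On the deposited FPKM the Mxi1 groups overlapped, at 15.3, 17.2 and 15.4 in stress testes and 15.3, 16.9 and 16.1 in control testes. Max was at 0.19 ± 0.14, Mxd4 at 0.21 ± 0.13, Mycn at -0.22 ± 0.29 and Mxd3 at -0.25 ± 0.34 (log2, SE). Mxd1, Mnt and Mlx were between -0.03 and -0.02. None of the 8 pathway lists held a gene called by edgeR or by DESeq2 in testis, and 1 immediate early gene passed without stress replicate 2.

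The stress effect was set against itself between tissues, over the 12 libraries of each pair. For Myc the log2 fold change in liver minus that in brain was -2.77 ± 0.68 (SE), and liver minus testis was -4.10 ± 1.06 (SE), given as a description. None of the 10 members passed in liver minus brain, where 0.195% of genes passed, and none in liver minus testis, where 0.154% passed, with 1 member at an unadjusted p under 0.05 in each. DESeq2 called 1 member, Myc, in both, where it called 3.32% of genes in liver minus brain and 4.22% in liver minus testis. Without stress liver replicate 2, edgeR also called Myc in both, where 0.572% and 0.449% of genes passed in the same order. With the animal as a block, Myc also passed in liver minus testis, where 0.0748% of genes passed. Myc was chosen for its liver difference, and nothing is read from any of these calls. Brain minus testis had 0 calls among the members and 0% among all genes, with 1 member at an unadjusted p under 0.05 and 0 members called by DESeq2. That member was Mycl, with a difference of 1.13 ± 0.47 (log2, SE; edgeR adjusted p = 0.511).

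The members had distinct tissue profiles. In control libraries, 9 of 10 members passed in testis against liver, 7 of 10 in liver against brain and 8 of 10 in testis against brain, close to the 88.5%, 80.1% and 88.1% of all genes that passed. In stress libraries 10, 9 and 8 members passed in the same order, beside 87.8%, 81.9% and 85.3% of all genes. These comparisons share libraries with each other.

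Myc averaged 0.0897 ± 0.0317 FPKM in control testes, 19.2 ± 3.50 FPKM in control livers and 1.07 ± 0.185 FPKM in control brains (SD, n = 3 each). Among stress libraries it averaged 0.231 ± 0.228 FPKM in testis, 2.77 ± 2.70 FPKM in liver and 1.07 ± 0.114 FPKM in brain (SD, n = 3 each). Stress liver and stress brain ranges overlapped between 1.09 and 1.18 FPKM, and stress liver replicate 2, at 5.88 FPKM, raised the liver mean. Liver, brain, testis was the order of the means in both treatments. In stress libraries, liver against brain did not pass for Myc (log2 1.38 ± 0.59, SE, edgeR adjusted p = 0.0561), though DESeq2 called it (adjusted p = 0.0220). The difference was 0.37 with library totals alone, and on log2(TPM + 1) Myc in stress liver was below stress brain. Mycn averaged 0.810 ± 0.300 FPKM in control testes, 0.348 ± 0.483 FPKM in control livers and 2.22 ± 0.253 FPKM in control brains (SD, n = 3 each). Testis and liver did not differ beyond their spread for Mycn in controls (log2 1.19 ± 0.81, SE; edgeR adjusted p = 0.190), although without control liver replicate 1 the difference was 3.50 and passed. With library totals alone it was 1.96 and also passed (edgeR adjusted p = 0.0382), as it did on log2(TPM + 1) in limma. Mycl averaged 0.182 ± 0.0568 FPKM in control testes, 1.94 ± 0.719 FPKM in control livers and 2.57 ± 0.457 FPKM in control brains (SD, n = 3 each). Liver and brain did not differ beyond their spread for Mycl in controls (log2 -0.41 ± 0.29, SE; edgeR adjusted p = 0.219), while testis was lower than both. With library totals alone Mycl in liver against brain was at -1.46 and passed (edgeR adjusted p = 0.00142), as it did on log2(TPM + 1) in limma.

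Max followed an order of brain, liver and testis, with 5.72 ± 0.276 FPKM in control testes, 16.2 ± 1.41 FPKM in control livers and 20.8 ± 0.959 FPKM in control brains (SD, n = 3 each). The step between liver and brain was -0.36 ± 0.12 (log2, SE; adjusted p = 0.0261 in edgeR), and it did not pass with the animal as a block (edgeR adjusted p = 0.0528) or without control liver replicate 2 or control brain replicate 1 or 2. Mlx averaged 2.80 ± 0.461 FPKM in control testes, 19.7 ± 0.663 FPKM in control livers and 7.89 ± 0.684 FPKM in control brains (SD, n = 3 each), and each step passed. Both Max and Mlx were lowest in testis. With library totals alone the step of Mlx between liver and brain did not pass.

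Mxd1, Mxi1 and Mnt were highest in testis. Mxd1 averaged 17.9 ± 0.958 FPKM in control testes, 3.02 ± 0.314 FPKM in control livers and 4.95 ± 0.733 FPKM in control brains (SD, n = 3 each). Mxi1 averaged 15.0 ± 0.408 FPKM in control testes, 5.66 ± 0.690 FPKM in control livers and 8.79 ± 1.01 FPKM in control brains (SD, n = 3 each). Mnt averaged 19.3 ± 0.962 FPKM in control testes, 5.76 ± 3.18 FPKM in control livers and 9.95 ± 0.708 FPKM in control brains (SD, n = 3 each). For these antagonists testis was higher than liver and brain in the edgeR fits. Liver and brain differed for Mxd1 and Mxi1 (log2 -0.71 ± 0.17 and -0.63 ± 0.15, SE), while the difference of Mnt, -0.80 ± 0.33, did not pass (edgeR adjusted p = 0.0509). Mnt passed with the animal as a block (edgeR adjusted p = 0.0163), in DESeq2 (adjusted p = 0.0288), without the low-count filter, with library totals alone (log2 -1.84, edgeR adjusted p = 0.00078), on log2(TPM + 1) in limma and without control liver replicate 1 (log2 -1.27).

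Mxd4 averaged 15.9 ± 1.25 FPKM in control testes, 22.5 ± 3.41 FPKM in control livers and 16.5 ± 0.595 FPKM in control brains (SD, n = 3 each). Its order turned with the scaling: liver against brain was 0.45 ± 0.12 on the log2 scale (SE), but -0.59 with library totals alone and -1.36 in limma on log2(TPM + 1). Mxd3 was low everywhere, at 0.461 ± 0.0858 FPKM in control testes, 0.130 ± 0.121 FPKM in control livers and 0.384 ± 0.124 FPKM in control brains (SD, n = 3 each). Testis and brain did not differ beyond their spread for Mxd3 (edgeR adjusted p = 0.503). Its step between testis and liver was 1.78 ± 0.67 (log2, SE; edgeR adjusted p = 0.0303). That step did not pass with the animal as a block (edgeR adjusted p = 0.0728) or without control liver replicate 2 or control testis replicate 1 or 3.

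Levels across tissues depend on the scaling. Library totals alone moved the median log2 difference of all genes by 0.74 in control testis against liver, by -1.04 in control liver against brain and by -0.30 in control testis against brain, and log2(TPM + 1) by 0.89, -1.61 and -0.69. DESeq2's size factors moved the testis comparisons by 0.17 and 0.15. In control libraries the directions given above for Myc, Mycn, Mycl, Max, Mxd1, Mxi1 and Mnt held under each of these. Mxd4 turned in every pair under at least 1 of them, Mlx turned in liver against brain under log2(TPM + 1), and Mxd3 turned in testis against brain. Mxi1 in control testis against brain no longer passed on log2(TPM + 1). The split of genes called higher and lower in control liver against brain was 6143 and 8147 with TMM, 3683 and 11387 with library totals alone and 2498 and 13511 on log2(TPM + 1).

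The genes most like Myc over the 18 libraries, by Pearson's r of log2(CPM + 1) among 19820 genes, were Atf3 (r = 0.98), Ppp1r15a (r = 0.98), Jund (r = 0.98), Jun (r = 0.97) and Pmvk (r = 0.97). Atf3, a stress-induced transcription factor, averaged 13.2 CPM in stress livers and 190.1 CPM in control livers. Ppp1r15a, which directs a phosphatase to the translation factor eIF2, averaged 25.1 CPM in stress livers and 71.5 CPM in control livers. These likenesses are descriptions over 6 groups in 3 tissues, and control liver is the group highest in all 5 genes. The 5 were picked for following Myc, so nothing further is read from their liver values. With each library set against its group mean, the closest genes were Zfp36, Btg2, Sult1c2, Egr1 and Fos, each with r between 0.94 and 0.95. On the log2 scale Myc varied most within the stress livers, at 1.09, 5.88 and 1.34 FPKM, so these r rest largely on that group. Sult1c2 averaged at most 0.04 CPM in the brain and testis groups. Zfp36, a protein that hastens the decay of messenger RNAs, averaged 324.6 CPM in stress livers and 1117.5 CPM in control livers.

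The other Myc genes had different neighbours. Mycn was closest to Gm37249 (r = 0.96), Zfp60 (r = 0.96) and Anapc4 (r = 0.95), and each of these was highest in brain. Mycl was closest to Farp1, Cyfip1 and Zfp358 (each r = 0.98), again highest in brain. Between members, Mycl and Max had r = 0.96 over the 18 libraries and -0.08 once each library was set against its group mean. Myc and Mxd1 had r = -0.75 over the libraries and 0.69 in the deviations, a sign that did not hold in every group. Stress liver replicate 2, highest of the stress livers in Myc, had Mxd1 at 4.28 FPKM against 2.28 and 2.54 FPKM. In stress brains and in control brains, the library lowest in Myc was the highest in Mxd1. In stress testes the library highest in Myc was the lowest in Mxd1.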

How the data were processed

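RNA was sequenced from 18 libraries, 3 per group, after a stranded total RNA preparation per the labels' protocols; the build is mm39 per the submitters' processing notes, and no source used here gives the aligner, the counter or the strand setting. The authors deposited raw counts, TPM and FPKM per gene; the deposited FPKM equal counts over a fixed gene length and the column total. Symbols came from a GENCODE annotation of GRCm38 by identifier, for 34362 of 34932 genes. Tests used edgeR 4.0.16 in R 4.3.3 on counts (TMM, default low-count filter, quasi-likelihood, Benjamini-Hochberg over all genes, threshold 0.05) and were tested on simulated data. Alternatives used DESeq2 1.42.0, its size factors, no filter, library totals, limma 3.58.1 on log2(TPM + 1), a replicate or animal block, and each library left out. The members and lists were chosen with earlier results of these data known. All members were named, and of other lists the called genes or up to 4 with the smallest p, but some were given by counts only; Btg2 in brain was named for its call with the block. The other called gene of the cofactor list is not reported here. Stress and control libraries of the same number deviated together in brain (r across genes 0.380, 0.300 and 0.600), so the block stands beside brain results. P-values measure only the spread between these samples. Counting is not stated to use strand, so overlapping and antisense genes cannot be told apart.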

Additional observations from a re-analysis of the deposited data

How the results depend on the processing

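In liver the number of members called was 1 and ranged from 0 to 1 when single libraries were left out. In the stress effect of liver minus brain the 0 calls became 1 under DESeq2 and 1 without the low-count filter, and ranged from 0 to 1 with single libraries left out. In liver minus testis they became 1 under DESeq2, 1 without the filter and 1 with the animal as a replicate block, and ranged from 0 to 1 with single libraries left out. Without the filter, 42 genes were higher and 81 lower of 29505 in liver minus brain, and 50 and 84 of 33086 in liver minus testis. Because Myc was chosen for its liver difference, nothing is read from these member counts. The replicate block gave a log2 fold change of -3.09 for Myc in liver, where numbers did not pair the libraries (r across genes 0.246, 0.0551 and 0.0310), nor in testis (0.123, 0.125 and -0.151). In liver the block called 10 immediate early genes and 3 genes of the Mondo arm. The block and the animal changed no other member's call than those given above. Over all genes, liver had 140 higher and 92 lower calls, 449 and 369 under DESeq2, 450 and 408 without the filter, 90 and 53 in limma on log2(TPM + 1) and 261 and 214 with the block. Brain had 1 and 0, 84 and 36 under DESeq2, 2 and 0 without the filter and 17 and 5 with the block. Testis had 1 and 3, 30 and 30 under DESeq2, 10 and 15 without the filter and 1 and 1 in limma.

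Signs turned for small differences, and the cause was not tested. With library totals alone, Max in liver was at 0.0080, and in testis Mxd1 was at 0.019, Mnt at 0.024 and Mlx at 0.040. With the block Mnt in brain was at -0.00050. With single libraries left out, the liver values ran from -0.37 to 0.080 for Mycl, from -0.087 to 0.065 for Max, from -0.27 to 0.23 for Mxd1, from -0.13 to 0.083 for Mxi1, from -0.79 to 0.00082 for Mnt and from -0.00089 to 0.053 for Mlx. In brain they ran from -0.11 to 0.12 for Myc, from -0.17 to 0.25 for Mycn and from -0.15 to 0.091 for Mnt. In testis they ran from -0.47 to 0.069 for Mycn, from -0.072 to 0.0099 for Mxd1, from -0.11 to 0.053 for Mnt and from -0.18 to 0.081 for Mlx. In stress testis against stress brain Mxd4 ran from -0.18 to 0.036.

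Between tissues, with library totals alone, Mxd4 was at -0.59 in control liver against brain, 0.22 in control testis against liver, -0.52 in stress liver against brain and 0.19 in stress testis against liver, and Mxd3 was at -0.050 in control testis against brain. On log2(TPM + 1) Mxd4 was at -1.36, 0.59, -1.31 and 0.42 in the same comparisons, Mxd3 at -0.25, Mlx at -0.48 in control and -0.55 in stress liver against brain, Myc at -0.60 in stress liver against brain and Mxi1 at -0.022 in stress testis against brain. DESeq2 and its size factors in edgeR both put Mxd4 at 0.079 in control and 0.061 in stress testis against brain. Library totals in every comparison, and limma on log2(TPM + 1) between tissues, were chosen after seeing the data. Low counts of Myc and Mycl in testis and of Mycn and Mxd3 in liver limit what those values can show.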
